A study of Rattus norvegicus with 10 samples.

Results

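Islets of JBlyp/lyp rats were compared with islets of F344lyp rats, so that a BB-related and a control background were set against each other with the lyp mutation named in both. The comparison rests on 4 of the 10 expression arrays of the series, 2 for each group, chosen by their group labels. All rats were 40 days old, and the tissue of every array is labelled as pancreatic islets. JBlyp/lyp rats are labelled diabetes prone with a homozygous mutation at the lyp locus, and came from matings of DRlyp/+ breeders. F344lyp rats are labelled healthy controls; the labels of the arrays do not give their lyp genotype, and the protocol and design text of the series write it as F344lyp/lyp. The other groups, with 2 arrays each, are JB and DR+/+, both labelled diabetes inducible without a lyp mutation, and F344, labelled a healthy control. Animals were fasted, and those with high blood glucose were left out before the islets were taken. Islets were freed by collagenase digestion and a density gradient, with no sorting of cells, and the labels call the arrays biological replicates without saying whether each came from 1 rat or from pooled islets. The p-values therefore measure the spread between these arrays.

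The BB (BioBreeding) rat develops autoimmune diabetes in which the insulin-producing beta cells of the islets are destroyed. The lyp mutation is a frameshift in Gimap5, which encodes a GTPase that T cells need to survive, and rats homozygous for it have few T cells in the periphery. F344 is an inbred rat that does not develop this disease, so F344lyp carries the lymphopenia on a background without it. Beta cells are known for low levels of several enzymes that remove peroxides, and the series asks whether BB islets have less capacity to deal with oxidative stress than non-BB islets. Superoxide dismutases turn superoxide into hydrogen peroxide, which catalase, glutathione peroxidases and peroxiredoxins remove, and glutathione transferases couple glutathione to reactive compounds.

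Levels are log2 RMA intensities, 1 value per probe set and array, so that a difference of 1 is a 2-fold change. A difference is the JBlyp/lyp mean minus the F344lyp mean, with its standard error (SE) from a limma fit over the 5 groups, and n is 2 arrays against 2 throughout. Calls were made at 0.05 on p-values adjusted by Benjamini-Hochberg over all 31042 probe sets, and "rose" and "fell" stand for called genes, higher and lower in JBlyp/lyp. Each gene is represented by 1 probe set, that with the highest mean level. Probe sets of near-identical family members (trypsins, elastases, amylases, Reg, RT1, Gstm and mast cell protease genes) can share signal, so the split of signal between such members is uncertain. Probe sets that lie over sequence differences between the strains could not be identified here. A difference in signal between the backgrounds is therefore not always one in transcript level.

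The arrays had medians between 5.39 and 5.44, and across probe sets the correlation was 0.981 between the JBlyp/lyp arrays, 0.993 between the F344lyp arrays and 0.958 to 0.971 between groups. Ins1, Ins2, Gcg, Sst and Iapp, hormone genes of the islet, stood between 12.03 and 14.26 on the 4 arrays, as the label of the tissue asks. Signal at the 3' end of Gapdh minus that at its 5' end, which grows as RNA or its labelled copy shortens, was 2.75 and 2.97 in JBlyp/lyp and 2.2 and 2.19 in F344lyp, with no overlap. With this measure as a term of the fit (the Gapdh term below), 103 probe sets were called, against 4383 without it. Of the 169 calls among the genes named here, 138 ended. Each of the 138 kept its direction, so an ended call does not mean a difference of 0. For example, with the term and without it Cpa3 gave -2.49 and -2.30, Gls2 -3.30 and -3.23 and Hspb8 -1.41 and -1.30. Gnmt gave -3.02 and -3.27, Amy1 -3.90 and -4.51 and Cma1 -2.15 and -2.58. The measure moves with the groups, so the background and RNA length cannot be fully told apart, and the groups of named genes below are given with the calls that held. The protocol states that only males were used, yet Xist, which is transcribed from the inactive X chromosome, ranged from 10.06 to 12.16 over the 10 arrays. Of the Y-linked genes, Eif2s3y ranged from 2.34 to 2.56 and Sry from 2.97 to 3.46, while Uty ranged from 8.37 to 9.13. The sex of the animals is therefore not settled here. Xist was 11.80 and 11.86 in JBlyp/lyp against 10.21 and 10.08 in F344lyp, a difference of 1.68 (SE 0.20, adjusted p = 0.000803).

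Between the groups, 4383 of 31042 probe sets (14.1%) were called, 2040 higher and 2343 lower, with a median difference of 0.03 over all probe sets. Over genes, each read by its brightest probe set, 2273 of 14217 (16.0%) were called. Of all genes, 668 (4.70%) rose and 1605 (11.3%) fell. The split between rises and falls was thus near even over probe sets and uneven over genes. Over genes the falls were also the larger changes: 626 genes fell by 2-fold or more and 213 rose, 112 fell by 4-fold or more and 27 rose, and 22 fell by 16-fold or more and 1 rose. The median difference over all genes was -0.04, and the median SE was 0.17. In each of the 2273 called genes, the arrays of the groups did not overlap, as was the case for 7795 of all 14217 genes. Leaving out a JBlyp/lyp array gave 5482 (replicate 1) or 2896 (replicate 2) called probe sets, and leaving out an F344lyp array gave 2385 or 1404. Of these calls 3438 of 5482, 2444 of 2896, 2159 of 2385 and 1385 of 1404 were among the 4383. Fitted on the 4 arrays alone, 1936 probe sets were called.

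Genes were then taken by function, in 40 lists. Their counts are to be read beside the shares of all genes, of which 4.70% rose and 11.3% fell. Falls were below that share in the lists of islet hormones (6.90%), nerve (4.44%) and erythroid genes (4.17%), among others. The falls were most frequent among the regenerating genes, acinar enzymes and glutathione transferases, while immediate early genes and ion channels had the highest medians.

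**Figure D1:**
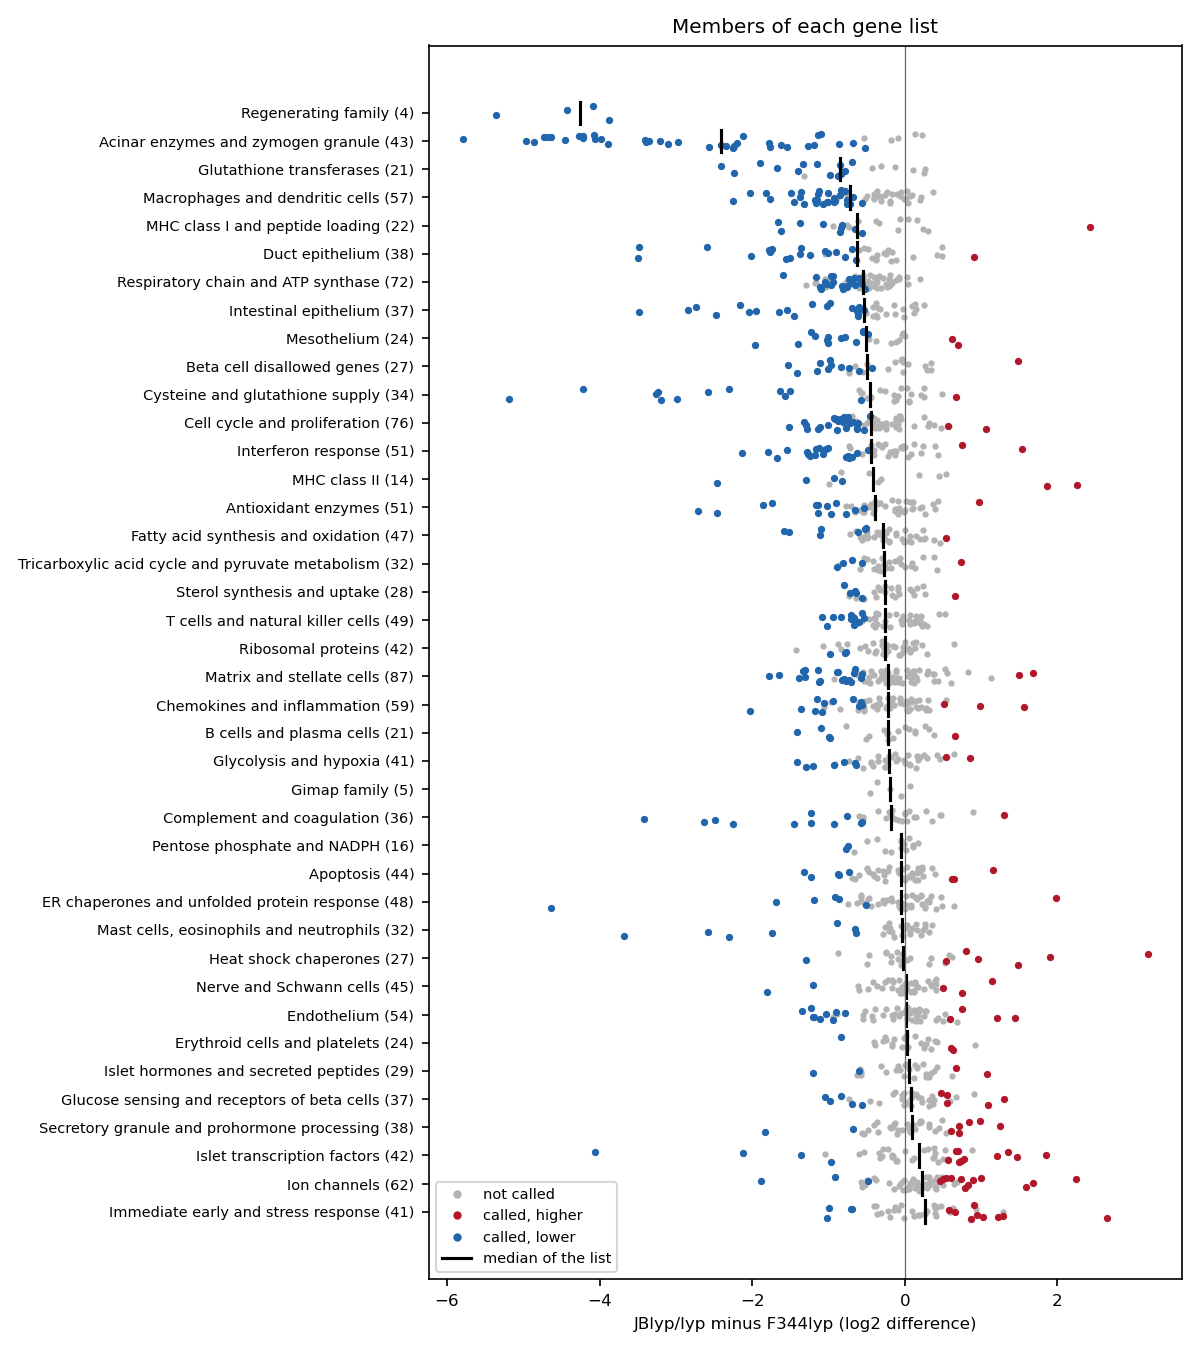
Each point is 1 gene of a list, placed by its difference between JBlyp/lyp and F344lyp (log2, 2 arrays against 2), red or blue where called and grey where not, with a bar at the median of the list and the number of measured genes in brackets. The medians run from -4.25 for the regenerating family and -2.41 for acinar genes to 0.26 for immediate early genes, against -0.04 over all genes.

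Of the antioxidant enzymes, 1 rose and 13 fell of 51 measured (25.5% fell, against 11.3% of all genes), and their median difference was -0.39. Prdx4, a peroxiredoxin of the endoplasmic reticulum, stood at 9.02 and 8.20 in JBlyp/lyp against 11.13 and 11.51 in F344lyp. It fell by 2.71 (SE 0.27, adjusted p = 0.000269). Gpx2, a glutathione peroxidase best known from epithelia of the gut, was 6.11 and 5.49 in JBlyp/lyp against 8.23 and 8.29 in F344lyp, and fell by 2.47 (SE 0.36, adjusted p = 0.00225). For both genes the JBlyp/lyp arrays differed from each other by more than the F344lyp arrays did, and the gap between groups was wider than either spread. Nqo2, a quinone reductase, was 5.75 and 6.62 in JBlyp/lyp against 7.82 and 8.26 in F344lyp (difference -1.85, SE 0.28, adjusted p = 0.0028). Pon3, a lactonase that protects lipids from oxidation, was 6.36 and 5.51 in JBlyp/lyp against 7.67 and 7.69 in F344lyp (difference -1.74, SE 0.23, adjusted p = 0.00144). Hmox1, the inducible enzyme that degrades heme, was 5.67 and 5.73 in JBlyp/lyp against 6.74 and 6.94 in F344lyp. It fell by 1.14 (SE 0.16, adjusted p = 0.00194).

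The enzymes that meet hydrogen peroxide and superoxide first gave a mixed picture. Gpx1, the common cytosolic glutathione peroxidase, was 10.63 and 9.76 in JBlyp/lyp against 11.15 and 11.52 in F344lyp, and fell by 1.14 (SE 0.28, adjusted p = 0.0261). Sod2, the mitochondrial superoxide dismutase, was 6.66 and 6.50 in JBlyp/lyp against 7.25 and 7.45 in F344lyp, and fell by 0.78 (SE 0.16, adjusted p = 0.0114). In contrast, Sod1, the cytosolic dismutase, was 11.55 and 11.59 in JBlyp/lyp against 11.50 and 11.81 in F344lyp, with overlapping arrays and a difference of -0.08 (SE 0.15, adjusted p = 0.757). Catalase (Cat) was 8.44 and 8.09 in JBlyp/lyp against 8.13 and 7.87 in F344lyp, a difference of 0.27 (SE 0.17, adjusted p = 0.351), also with overlap between the groups. Gpx4, which reduces lipid peroxides in membranes, was 9.24 and 7.94 in JBlyp/lyp against 9.17 and 9.31 in F344lyp. Its difference of -0.65 (SE 0.34, adjusted p = 0.245) did not pass the test, and 1 JBlyp/lyp array lay inside the range of F344lyp while the other lay below it. No named call of this group held with the Gapdh term. Gpx1 lost its call without JBlyp/lyp replicate 2 or either F344lyp array and Sod2 lost its call without JBlyp/lyp replicate 2 or F344lyp replicate 2. Sesn2 (0.97) was also called, outside the naming rule. The antioxidant counts higher and lower were 1 and 20 when JBlyp/lyp replicate 1 was left out, 1 and 8 with JBlyp/lyp replicate 2 left out and 1 and 7 with F344lyp replicate 2 left out.

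**Figure D2:**
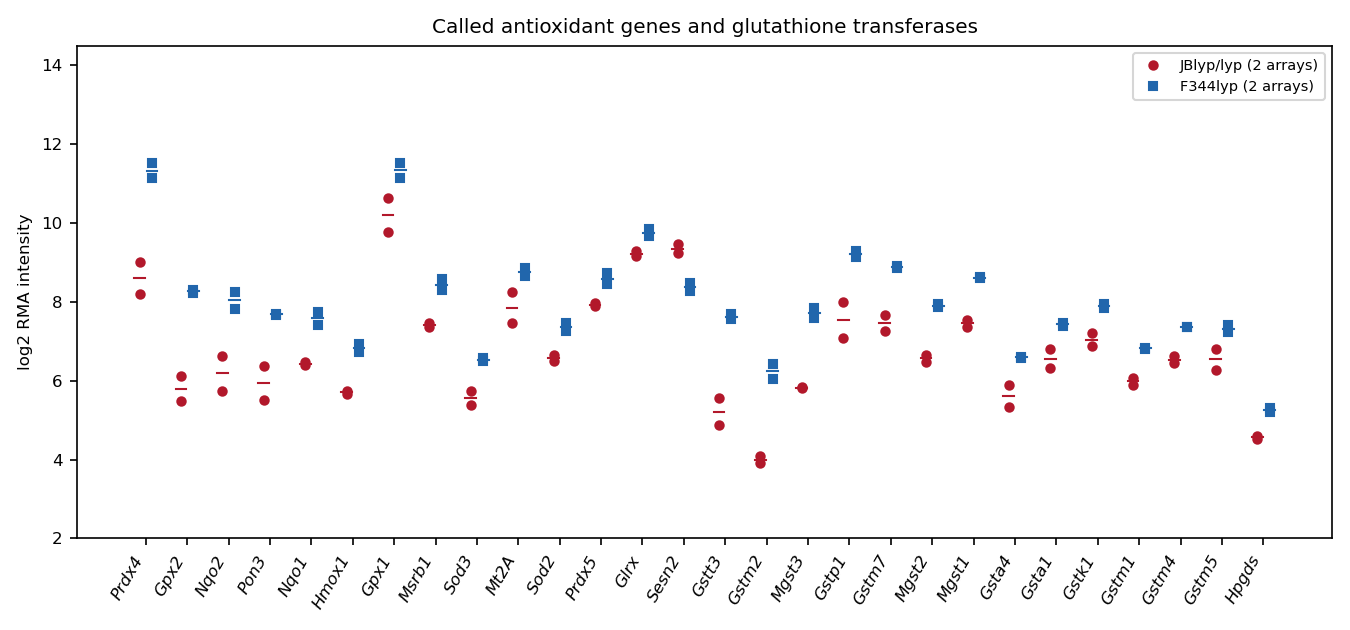
Levels (log2 RMA intensity) of the called antioxidant enzymes and glutathione transferases, with red circles for the 2 JBlyp/lyp arrays, blue squares for the 2 F344lyp arrays and a dash at each mean. Sesn2 is the only gene plotted whose JBlyp/lyp arrays lie above its F344lyp arrays, and Prdx4 shows the widest gap, from means near 8.61 to 11.32.

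Of the glutathione transferases, 0 rose and 14 fell of 21, with a median difference of -0.85. Gstt3, a theta class transferase, was 5.56 and 4.87 in JBlyp/lyp against 7.56 and 7.68 in F344lyp, and fell by 2.41 (SE 0.22, adjusted p = 0.000127). Gstm2, of the mu class, was 4.10 and 3.90 in JBlyp/lyp against 6.05 and 6.43 in F344lyp (difference -2.24, SE 0.16, adjusted p = 2.77e-05). The microsomal Mgst3 was 5.83 and 5.82 in JBlyp/lyp against 7.60 and 7.85 in F344lyp (difference -1.90, SE 0.17, adjusted p = 0.000136). In these 3 genes every JBlyp/lyp array lay below every F344lyp array by more than 1 log2 unit. Gstp1, the pi class transferase that is abundant in duct epithelium, was 8.0 and 7.09 in JBlyp/lyp against 9.14 and 9.30 in F344lyp, and fell by 1.67 (SE 0.28, adjusted p = 0.00423). The transferase counts higher and lower were 0 and 9 when F344lyp replicate 1 was left out and 0 and 7 with F344lyp replicate 2 left out. Gstp1 lost its call without F344lyp replicate 2. Each of these named calls ended with the Gapdh term. The markers of acinar cells described below fell too (mean level of the list 9.02 and 8.55 in JBlyp/lyp and 11.30 and 11.49 in F344lyp), and their part in the antioxidant and transferase differences was not tested.

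The antioxidant response runs through the antioxidant response element, the site bound by the factor Nrf2. Promoters are therefore shown for the antioxidant genes with the largest falls and for Gstp1, a transferase named above that held a match. The letters TGACNNNGC were searched on both strands in the 300 bases around each gene's start (250 before and 50 after, RefSeq, GRCr8). They were present in 3342 of 27457 promoters (12.2%), in 12 of 43 antioxidant genes with a promoter (27.9%) and in 7 of the 12 that were called (58.3%). The 7 include Sesn2, which was called higher. Of the glutathione transferases, 6 of 17 (35.3%) held it, and of the 12 called, 4 (33.3%). Of the 4 antioxidant genes with the largest falls, Prdx4, Gpx2 and Pon3 held a match and Nqo2 did not. Capitals mark the match.
Prdx4 (chrX:43878483-43878782, plus strand): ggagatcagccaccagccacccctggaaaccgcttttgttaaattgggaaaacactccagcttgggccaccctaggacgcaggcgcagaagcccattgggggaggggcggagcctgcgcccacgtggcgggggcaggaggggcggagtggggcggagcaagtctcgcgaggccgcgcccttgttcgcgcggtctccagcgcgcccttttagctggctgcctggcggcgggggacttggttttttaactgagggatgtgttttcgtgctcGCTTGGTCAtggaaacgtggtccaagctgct
Gpx2 (chr6:101229984-101230283, minus strand): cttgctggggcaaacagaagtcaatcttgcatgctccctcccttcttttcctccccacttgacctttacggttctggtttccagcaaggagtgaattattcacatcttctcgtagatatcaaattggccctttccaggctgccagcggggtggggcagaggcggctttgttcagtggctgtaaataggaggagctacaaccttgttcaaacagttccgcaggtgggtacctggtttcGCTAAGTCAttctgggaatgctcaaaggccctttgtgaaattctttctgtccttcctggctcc
Gstp1 (chr1:210769656-210769955, minus strand): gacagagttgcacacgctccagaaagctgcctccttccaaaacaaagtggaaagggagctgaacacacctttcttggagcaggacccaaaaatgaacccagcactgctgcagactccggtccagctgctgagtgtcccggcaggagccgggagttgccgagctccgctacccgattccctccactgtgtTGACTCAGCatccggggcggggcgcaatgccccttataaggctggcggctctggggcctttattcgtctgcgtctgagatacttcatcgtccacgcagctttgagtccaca
In Prdx4 and Gpx2 the match is read on the opposite strand, and in Gstp1 on the strand shown. A match is a description of these letters, and no binding was measured.

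Cysteine limits the synthesis of glutathione. Of the genes for the supply and use of cysteine, glycine and glutathione 1 rose and 12 fell of 34 (median -0.45). Glutathione itself was not measured. Cth, the enzyme that makes cysteine from cystathionine, was 3.29 and 3.06 in JBlyp/lyp against 8.15 and 8.57 in F344lyp, and fell by 5.19 (SE 0.17, adjusted p = 3.39e-07). Gatm, which makes the creatine precursor guanidinoacetate and also counts among the acinar genes, was 6.24 and 6.62 in JBlyp/lyp against 10.65 and 10.65 in F344lyp (difference -4.22, SE 0.20, adjusted p = 2.17e-06). Gnmt, a methyltransferase that consumes S-adenosylmethionine, was 5.15 and 4.48 in JBlyp/lyp against 8.20 and 7.96 in F344lyp (difference -3.27, SE 0.21, adjusted p = 1.81e-05). Gls2, a glutaminase, was 6.51 and 5.97 in JBlyp/lyp against 9.40 and 9.54 in F344lyp (difference -3.23, SE 0.23, adjusted p = 3.2e-05). The F344lyp arrays lay within 0.5 of each other for these 4 genes and every JBlyp/lyp array lay more than 2 units below them. Slc3a1 (0.67) was also called, outside the naming rule. The part of the acinar falls in the differences of this list was not tested. The counts of the list higher and lower were 2 and 13 when JBlyp/lyp replicate 1 was left out, 0 and 11 with F344lyp replicate 1 left out and 0 and 12 with F344lyp replicate 2 left out. Cth and Gatm kept their calls with the Gapdh term, and the other called genes named here did not. Of the genes that regenerate NADPH, 0 rose and 2 fell of 16 (12.5%, near the 11.3% of all genes). The 2 were the transketolase gene Tkt (difference -0.77, SE 0.20, adjusted p = 0.0341) and the mitochondrial malic enzyme gene Me2 (-0.75, SE 0.15, adjusted p = 0.0116). The NADPH counts higher and lower were 0 and 4 when JBlyp/lyp replicate 1 was left out, 0 and 0 with JBlyp/lyp replicate 2 left out, 0 and 1 with F344lyp replicate 1 left out and 0 and 0 with F344lyp replicate 2 left out. Tkt lost its call without JBlyp/lyp replicate 2 or either F344lyp array and Me2 lost its call without JBlyp/lyp replicate 2 or F344lyp replicate 2. Neither call held with the Gapdh term.

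Genes of exocrine pancreas were far lower in JBlyp/lyp islets. Of the acinar enzyme and zymogen granule genes, 0 rose and 38 fell of 43 (88.4%, against 11.3% of all genes), with a median difference of -2.41. In such bulk samples, fewer cells of a type and less RNA per cell cannot be told apart. Cuzd1, a zymogen granule membrane protein, was 5.95 and 6.15 in JBlyp/lyp against 11.67 and 12.01 in F344lyp, and fell by 5.79 (SE 0.17, adjusted p = 1.4e-07), the largest fall of any named gene. Spink1l and Spink1, trypsin inhibitors of acinar cells, fell by 4.96 (SE 0.18, adjusted p = 7.34e-07) and 4.86 (SE 0.32, adjusted p = 1.99e-05). Spink1 was 7.53 and 6.44 in JBlyp/lyp against 11.82 and 11.86 in F344lyp, so that the JBlyp/lyp arrays lay more than 1 unit apart from each other and the F344lyp arrays almost coincided. Tmed6, a cargo receptor of the secretory pathway, was 5.03 and 4.60 in JBlyp/lyp against 9.42 and 9.67 in F344lyp (difference -4.73, SE 0.22, adjusted p = 2.18e-06). The trypsin-like Prss3bl1 fell by 5.68 (SE 0.30, adjusted p = 4.36e-06), the amylase gene Amy1 by 4.51 (SE 0.31, adjusted p = 2.58e-05) and the kallikrein gene Klk1b3 by 4.46 (SE 0.32, adjusted p = 3.25e-05). Erp27 and Pdia2, chaperones of the endoplasmic reticulum that are known from acinar cells, fell by 4.67 (SE 0.33, adjusted p = 3e-05) and 4.63 (SE 0.27, adjusted p = 8.54e-06). Neither acinar count moved by over 1.5 times when an array was left out. Cuzd1, Spink1l, Spink1, Tmed6, Prss3bl1, Erp27 and Pdia2 kept their calls with the Gapdh term, and the other called genes named here did not.

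The factors that keep acinar identity were lower as well. Ptf1a, which drives acinar genes, was 4.41 and 4.90 in JBlyp/lyp against 8.67 and 8.77 in F344lyp, and fell by 4.06 (SE 0.23, adjusted p = 6.95e-06). Nr5a2, its nuclear receptor partner, was 5.71 and 6.23 in JBlyp/lyp against 8.04 and 8.15 in F344lyp, and fell by 2.12 (SE 0.17, adjusted p = 6.44e-05). Ptger3, a receptor for prostaglandin E2, was 5.20 and 4.95 in JBlyp/lyp against 9.33 and 9.71 in F344lyp (difference -4.44, SE 0.17, adjusted p = 8.41e-07). Ang, a secreted ribonuclease, was 4.71 and 4.64 in JBlyp/lyp against 9.94 and 10.08 in F344lyp (difference -5.33, SE 0.22, adjusted p = 9.78e-07). The gene 1810009J06Rikl, annotated by a clone name, was 5.56 and 5.44 in JBlyp/lyp against 10.71 and 10.93 in F344lyp (difference -5.32, SE 0.13, adjusted p = 6.97e-08). In these 5 genes the replicates of a group lay within 0.6 of each other. Ptf1a, Nr5a2, Ptger3, Ang and 1810009J06Rikl kept their calls with the Gapdh term.

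All 4 measured genes of the regenerating family, secreted lectins that acinar cells release in pancreatitis, fell. Reg3a was 7.45 and 6.92 in JBlyp/lyp against 12.39 and 12.70 in F344lyp, and fell by 5.36 (SE 0.22, adjusted p = 9.78e-07). Reg3b was 8.55 and 8.32 in JBlyp/lyp against 12.66 and 13.05 in F344lyp, and fell by 4.42 (SE 0.20, adjusted p = 1.58e-06). Reg1a was 10.08 and 8.71 in JBlyp/lyp against 13.08 and 13.46 in F344lyp, and fell by 3.87 (SE 0.36, adjusted p = 0.00015). The JBlyp/lyp arrays of Reg1a differed by more than 1 unit, and those of Reg3b lay close. Reg3g was 4.26 and 4.05 in JBlyp/lyp against 8.16 and 8.33 in F344lyp, and fell by 4.09 (SE 0.16, adjusted p = 8.41e-07). The family count stayed at 4 with each array left out. Reg3a, Reg3b and Reg3g kept their calls with the Gapdh term, and the other called genes named here did not.

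**Figure D3:**
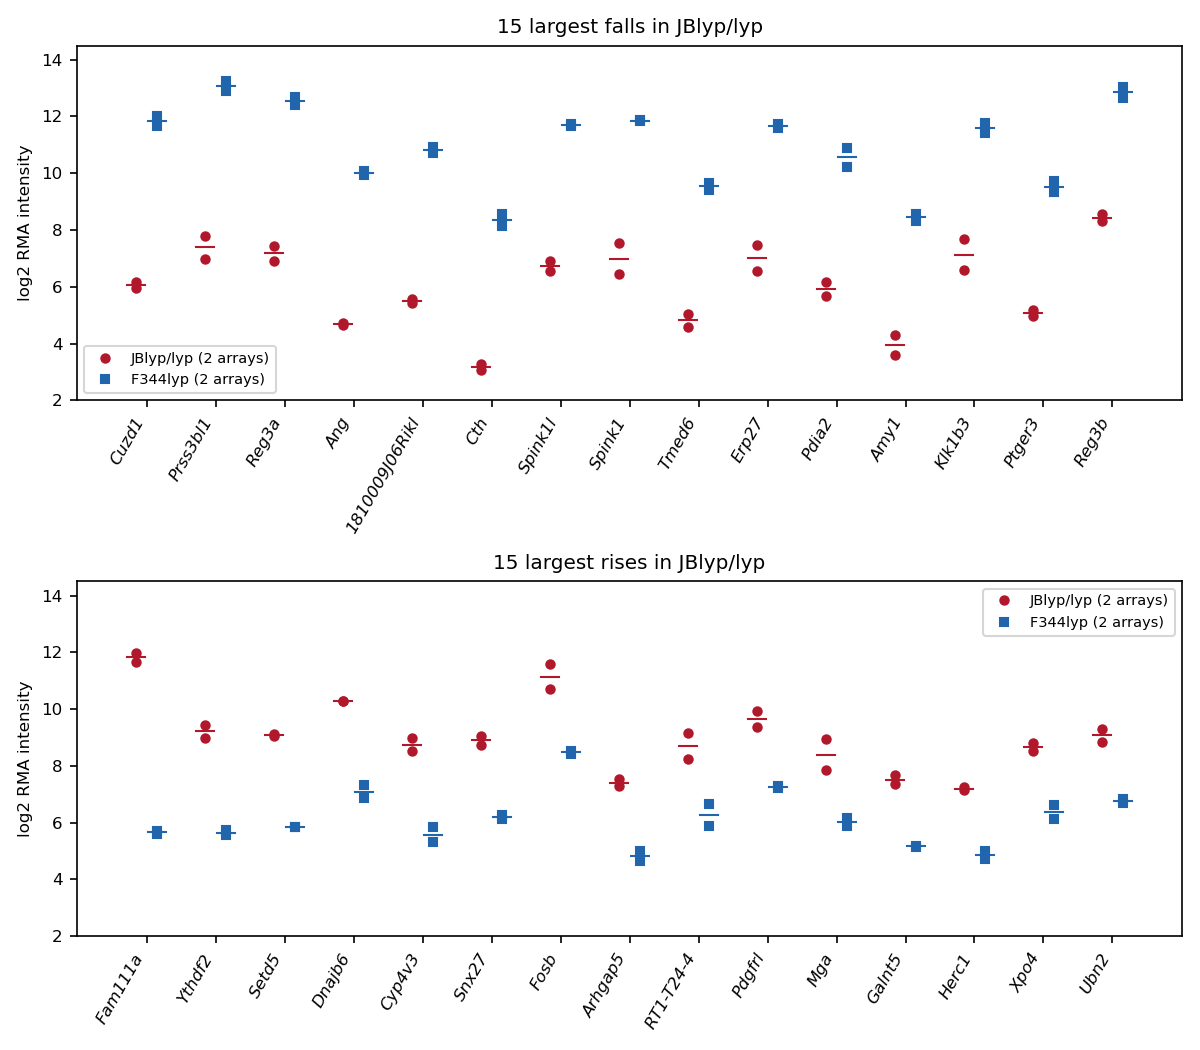
Levels (log2 RMA intensity) of the 15 genes with the largest falls (top) and the 15 with the largest rises (bottom) in JBlyp/lyp, with red circles for the 2 JBlyp/lyp arrays, blue squares for the 2 F344lyp arrays and a dash at each mean. The falls reach -5.79 (Cuzd1), and Fam111a, which rose by 6.17, stands apart from the other rises.

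Genes of other epithelia also fell more often than the 11.3% of all genes. Of the duct epithelium genes, 1 rose and 18 fell of 38 (47.4% fell, median -0.62). Of the intestinal epithelium genes, 0 rose and 19 fell of 37 (51.4% fell, median -0.54). Muc1, a mucin of duct surfaces, was 5.30 and 5.70 in JBlyp/lyp against 8.87 and 9.12 in F344lyp, and fell by 3.50 (SE 0.17, adjusted p = 2.49e-06). Lgals4, a galectin of digestive epithelium that is on both lists, was 4.10 and 4.01 in JBlyp/lyp against 7.51 and 7.57 in F344lyp, and fell by 3.49 (SE 0.14, adjusted p = 9.78e-07). Neither gene exceeded a level of 6 on a JBlyp/lyp array. Sctr, the secretin receptor through which ducts are told to release bicarbonate, was 5.47 and 5.36 in JBlyp/lyp against 7.91 and 8.11 in F344lyp (difference -2.60, SE 0.18, adjusted p = 2.33e-05). Cldn10, a tight junction protein, was 3.69 and 4.21 in JBlyp/lyp against 5.78 and 6.14 in F344lyp (difference -2.01, SE 0.20, adjusted p = 0.000262). Among the intestinal genes, Clca1, a secreted product of goblet cells, was 4.29 and 4.08 in JBlyp/lyp against 6.95 and 7.10 in F344lyp (difference -2.84, SE 0.18, adjusted p = 1.33e-05). Anpep, a brush border peptidase, fell by 2.74 (SE 0.18, adjusted p = 1.81e-05), and Apob, the protein of chylomicrons, by 2.47 (SE 0.25, adjusted p = 0.000266). Cldn4 (0.91) was also called, outside the naming rule. The duct counts higher and lower were 2 and 20 when JBlyp/lyp replicate 1 was left out and 1 and 11 with F344lyp replicate 2 left out. The intestinal counts higher and lower were 0 and 12 when F344lyp replicate 1 was left out and 0 and 10 with F344lyp replicate 2 left out. Muc1, Lgals4, Sctr, Clca1 and Anpep kept their calls with the Gapdh term, and the other called genes named here did not.

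Of the mesothelium genes, which mark the lining of the abdominal cavity, 2 rose and 13 fell of 24 (median -0.51). Upk1b, a uroplakin, was 5.81 and 5.70 in JBlyp/lyp against 7.65 and 7.78 in F344lyp, and fell by 1.96 (SE 0.16, adjusted p = 8.31e-05). Wt1, a transcription factor of mesothelium, was 3.81 and 4.56 in JBlyp/lyp against 5.4 and 5.77 in F344lyp (difference -1.40, SE 0.24, adjusted p = 0.00537). Slpi, a protease inhibitor of epithelial secretions, fell by 1.23 (SE 0.17, adjusted p = 0.0016), and Igfbp6, which binds insulin-like growth factor II, by 1.17 (SE 0.14, adjusted p = 0.00072). The mean level of the list was 7.0 and 6.89 in JBlyp/lyp and 7.42 and 7.52 in F344lyp. Msln (0.70) and Calb2 (0.62) were also called, outside the naming rule. The mesothelium counts higher and lower were 1 and 12 when JBlyp/lyp replicate 1 was left out, 1 and 8 with JBlyp/lyp replicate 2 left out, 0 and 6 with F344lyp replicate 1 left out and 1 and 5 with F344lyp replicate 2 left out. Wt1 lost its call without F344lyp replicate 2. Upk1b kept its call with the Gapdh term, and the other called genes named here did not. In the list of mast cells, eosinophils and neutrophils 0 rose and 7 fell of 32 (median -0.03), and the 4 largest falls were all of mast cell proteases. Mcpt1l1, a mast cell protease, was 4.22 and 4.0 in JBlyp/lyp against 7.56 and 8.03 in F344lyp (difference -3.69, SE 0.22, adjusted p = 1.09e-05). The chymase gene Cma1 was 5.06 and 4.84 in JBlyp/lyp against 7.46 and 7.62 in F344lyp (difference -2.58, SE 0.19, adjusted p = 3.05e-05). The carboxypeptidase gene Cpa3 fell by 2.30 (SE 0.18, adjusted p = 6.15e-05) and the tryptase gene Tpsab1 by 1.73 (SE 0.15, adjusted p = 9.85e-05). The JBlyp/lyp arrays of these 4 genes lay between 3.54 and 5.32, and the F344lyp arrays between 5.31 and 8.03. The granulocyte counts higher and lower were 0 and 4 when F344lyp replicate 2 was left out. Mcpt1l1 kept its call with the Gapdh term, and the other called genes named here did not.

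Macrophage genes that passed the test were lower in JBlyp/lyp islets, at an age that the series places before insulitis in DRlyp/lyp rats. Of the macrophage and dendritic cell genes, 0 rose and 29 fell of 57 (50.9%, against 11.3% of all genes). Their median difference was -0.72, and their mean level was 5.43 and 5.33 in JBlyp/lyp and 6.01 and 6.11 in F344lyp. C1qc, a chain of complement C1q that resident macrophages make, was 6.44 and 5.32 in JBlyp/lyp against 8.15 and 8.13 in F344lyp, and fell by 2.26 (SE 0.30, adjusted p = 0.0013). The chemokine gene Ccl6 was 4.98 and 4.51 in JBlyp/lyp against 6.77 and 6.78 in F344lyp (difference -2.03, SE 0.20, adjusted p = 0.000249). Cyba, a subunit of the phagocyte NADPH oxidase that makes superoxide, was 5.78 and 5.78 in JBlyp/lyp against 7.44 and 7.66 in F344lyp, and fell by 1.77 (SE 0.16, adjusted p = 0.000153). Apoe, a lipid carrier made by macrophages among others, was 9.48 and 8.13 in JBlyp/lyp against 10.59 and 10.65 in F344lyp (difference -1.82, SE 0.38, adjusted p = 0.0122). In Ccl6 and Cyba the replicates of each group lay within 0.5 of each other, while the JBlyp/lyp arrays of C1qc and Apoe lay more than 1 unit apart. The macrophage counts higher and lower were 0 and 14 when F344lyp replicate 2 was left out. Apoe lost its call without either F344lyp array. The Gapdh term ended each of these calls.

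Of the complement and coagulation genes, 1 rose and 11 fell of 36 (median -0.18). Cfi, the protease that inactivates C3b, was 4.47 and 4.52 in JBlyp/lyp against 7.66 and 8.16 in F344lyp, and fell by 3.41 (SE 0.21, adjusted p = 1.18e-05). C3, on which all complement pathways converge, was 5.83 and 5.34 in JBlyp/lyp against 8.16 and 8.27 in F344lyp, and fell by 2.63 (SE 0.26, adjusted p = 0.000262). Cfd, the factor D protease of the alternative pathway, was 4.76 and 4.49 in JBlyp/lyp against 7.10 and 7.12 in F344lyp (difference -2.48, SE 0.25, adjusted p = 0.000264). The F344lyp levels of these 3 genes lay above 7 and the JBlyp/lyp levels below 6. F3 (1.29) was also called, outside the naming rule. The complement counts higher and lower were 3 and 13 when JBlyp/lyp replicate 1 was left out and 1 and 7 with F344lyp replicate 2 left out. Cfi and C3 kept their calls with the Gapdh term, and the other called genes named here did not.

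Of the interferon response genes, 2 rose and 21 fell of 51 (41.2% fell, against 11.3% of all genes, median -0.44). Ifi27, an interferon-induced mitochondrial protein, was 9.11 and 8.84 in JBlyp/lyp against 11.08 and 11.13 in F344lyp, and fell by 2.13 (SE 0.15, adjusted p = 2.78e-05). Ifi44l was 5.65 and 5.74 in JBlyp/lyp against 7.51 and 7.47 in F344lyp (difference -1.79, SE 0.17, adjusted p = 0.000153), and the antiviral GTPase gene Mx1 was 4.60 and 4.43 in JBlyp/lyp against 6.33 and 6.06 in F344lyp (difference -1.67, SE 0.14, adjusted p = 9.85e-05). In contrast, Irgm, an interferon-induced GTPase, was 7.01 and 7.22 in JBlyp/lyp against 6.02 and 5.14 in F344lyp, and rose by 1.54 (SE 0.27, adjusted p = 0.00519). Cmpk2 (0.75) was also called, outside the naming rule. The interferon counts higher and lower were 1 and 18 when JBlyp/lyp replicate 2 was left out and 1 and 11 with F344lyp replicate 2 left out. Ifi27 kept its call with the Gapdh term, and the other called genes named here did not. Of the chemokine and inflammation genes, 3 rose and 11 fell of 59 (5.08% and 18.6%, median -0.22). The shares of all genes were 4.70% and 11.3%. Cxcl10, an interferon-induced chemokine that draws T cells, was 7.79 and 7.59 in JBlyp/lyp against 5.90 and 6.36 in F344lyp, and rose by 1.56 (SE 0.22, adjusted p = 0.00183), while Ccl5, a chemokine for T cells and monocytes, was 5.52 and 5.78 in JBlyp/lyp against 6.82 and 6.84 in F344lyp, and fell by 1.18 (SE 0.19, adjusted p = 0.00362). Ccl21, the lymphatic chemokine, fell by 1.36 (SE 0.34, adjusted p = 0.0256). Cxcl11 (0.98) and Il1rn (0.52) were also called, outside the naming rule. The chemokine counts higher and lower were 1 and 7 when JBlyp/lyp replicate 2 was left out, 1 and 4 with F344lyp replicate 1 left out and 1 and 3 with F344lyp replicate 2 left out. Ccl21 lost its call without JBlyp/lyp replicate 2 or either F344lyp array. All of these named calls ended under the Gapdh term.

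Of the class I genes and the peptide loading machinery of the major histocompatibility complex, named RT1 in the rat, 1 rose and 9 fell of 22 (median -0.63). Psmb10 and Psmb9, subunits of the immunoproteasome, were 6.83 and 6.70 in JBlyp/lyp against 8.53 and 8.33 in F344lyp, and 7.19 and 6.77 in JBlyp/lyp against 8.15 and 8.55 in F344lyp. Psmb10 fell by 1.66 (SE 0.14, adjusted p = 7.61e-05) and Psmb9 fell by 1.38 (SE 0.20, adjusted p = 0.00229). RT1-CE16, a class I gene, was 4.65 and 4.51 in JBlyp/lyp against 6.26 and 6.15 in F344lyp (difference -1.63, SE 0.13, adjusted p = 6.03e-05), while RT1-T24-4, a nonclassical class I gene, was 8.24 and 9.14 in JBlyp/lyp against 5.87 and 6.65 in F344lyp, and rose by 2.43 (SE 0.30, adjusted p = 0.000889). Of the class II genes 2 rose and 4 fell of 14 (median -0.41). The class II beta chain gene RT1-Db1 was 6.35 and 6.58 in JBlyp/lyp against 8.81 and 9.04 in F344lyp (difference -2.46, SE 0.14, adjusted p = 8.99e-06), and Cd74, the invariant chain, was 10.19 and 9.30 in JBlyp/lyp against 10.95 and 11.12 in F344lyp (difference -1.29, SE 0.27, adjusted p = 0.0119). For RT1-Bb and RT1-Ba the probe sets went both ways: the probe set that represents the gene gave 2.25 and 1.86 and another gave -5.83 and -2.88, and they are the 2 genes counted as higher, for which a direction is therefore left unstated. Their calls ended with the Gapdh term. The class I counts higher and lower were 1 and 5 when F344lyp replicate 2 was left out. RT1-DMb (-0.83) and Ctss (-0.93) were also called, outside the naming rule. The class II counts higher and lower were 2 and 7 when JBlyp/lyp replicate 1 was left out and 2 and 1 with F344lyp replicate 2 left out. Cd74 lost its call without either F344lyp array. RT1-Db1 kept its call with the Gapdh term, and the other called genes named here did not.

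Lymphocyte genes were lower or did not pass the test, with the exception of 1 gene on the B cell list. Of the T cell and natural killer cell genes 0 rose and 13 fell of 49 (median -0.26). Klrb1a, a natural killer cell receptor, was 3.46 and 3.07 in JBlyp/lyp against 4.59 and 4.12 in F344lyp, and fell by 1.09 (SE 0.19, adjusted p = 0.00515). Cd3g, a chain of the T cell receptor complex, was 4.27 and 3.73 in JBlyp/lyp against 4.54 and 5.52 in F344lyp (difference -1.02, SE 0.29, adjusted p = 0.0453). Perforin (Prf1) fell by 0.94 (SE 0.17, adjusted p = 0.00695) and the granule protein gene Nkg7 by 0.83 (SE 0.17, adjusted p = 0.0108). The largest level among these 4 genes was 6.22. The T cell counts higher and lower were 0 and 5 when JBlyp/lyp replicate 2 was left out, 0 and 8 with F344lyp replicate 1 left out and 0 and 1 with F344lyp replicate 2 left out. Cd3g lost its call without JBlyp/lyp replicate 2 or F344lyp replicate 2 and Prf1 and Nkg7 lost their calls without F344lyp replicate 2. Of the B cell and plasma cell genes 1 rose and 4 fell of 21 (4.76% and 19.0%, median -0.21). The shares of all genes were 4.70% and 11.3%. Pou2af1, a coactivator of B cells, was 4.16 and 4.35 in JBlyp/lyp against 5.34 and 6.0 in F344lyp (difference -1.42, SE 0.21, adjusted p = 0.00235). Cd37, a tetraspanin of B cells, fell by 1.10 (SE 0.20, adjusted p = 0.006), the complement receptor gene Cr2 by 1.0 (SE 0.24, adjusted p = 0.025), and Cd24, which epithelia and immature lymphocytes share, by 0.98 (SE 0.29, adjusted p = 0.0484). Ebf1 (0.66) was also called, outside the naming rule. The B cell counts higher and lower were 2 and 3 when JBlyp/lyp replicate 1 was left out, 0 and 4 with JBlyp/lyp replicate 2 left out, 0 and 4 with F344lyp replicate 1 left out and 0 and 1 with F344lyp replicate 2 left out. Cd37 lost its call without F344lyp replicate 2 and Cr2 and Cd24 lost their calls without JBlyp/lyp replicate 1 or F344lyp replicate 2. With the Gapdh term, none of these named calls held.

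Genes of dividing cells were more often lower than higher in JBlyp/lyp. Of the cell cycle and proliferation genes 2 rose and 29 fell of 76 (38.2% fell, against 11.3% of all genes), with a median of -0.45. Cdc20, an activator of the anaphase promoting complex, was 5.83 and 5.55 in JBlyp/lyp against 7.18 and 7.24 in F344lyp, and fell by 1.52 (SE 0.18, adjusted p = 0.00069). The spindle checkpoint kinase gene Bub1 was 4.61 and 4.44 in JBlyp/lyp against 5.95 and 5.74 in F344lyp (difference -1.32, SE 0.17, adjusted p = 0.00112). Ccna2, cyclin A2, was 3.71 and 3.59 in JBlyp/lyp against 4.69 and 5.16 in F344lyp (difference -1.28, SE 0.18, adjusted p = 0.0019), and the phosphatase gene Cdkn3 fell by 1.29 (SE 0.31, adjusted p = 0.0229). Ccnd2 (1.06) and Cdkn1a (0.57) were also called, outside the naming rule. The cell cycle counts higher and lower were 1 and 14 when JBlyp/lyp replicate 2 was left out, 0 and 14 with F344lyp replicate 1 left out and 0 and 7 with F344lyp replicate 2 left out. Cdkn3 lost its call without JBlyp/lyp replicate 2 or either F344lyp array. No named call of this group held with the Gapdh term. Falls were also counted in the acinar and macrophage lists, and their part in the cell cycle falls was not tested.

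None of the main hormone genes passed the test on the values as deposited. Insulin 1 (Ins1) was 14.26 and 14.23 in JBlyp/lyp against 14.14 and 14.12 in F344lyp, a difference of 0.12 (SE 0.12, adjusted p = 0.566), and insulin 2 (Ins2) was 13.98 and 13.87 in JBlyp/lyp against 13.54 and 13.68 in F344lyp, a difference of 0.31 (SE 0.13, adjusted p = 0.142). Glucagon (Gcg) was 13.74 and 13.37 in JBlyp/lyp against 13.11 and 13.45 in F344lyp, a difference of 0.27 (SE 0.17, adjusted p = 0.342). For both insulin genes every JBlyp/lyp array lay above every F344lyp array, though neither difference passed the test, and the glucagon arrays overlapped. A lack of overlap in either direction was found for 7795 of all 14217 genes. After quantile normalization of the arrays Ins2 and Gcg were called, with differences of 0.75 (adjusted p = 0.00405) and 0.55 (adjusted p = 0.0222). Somatostatin (Sst) was 13.30 and 12.95 in JBlyp/lyp against 13.08 and 13.18 in F344lyp, a difference of -0.01 (SE 0.18, adjusted p = 0.984) that turned to 0.32 after quantile normalization. Pancreatic polypeptide (Ppy) was 12.95 and 11.92 in JBlyp/lyp against 11.72 and 11.91 in F344lyp (0.62, SE 0.30, adjusted p = 0.217), and the amyloid peptide gene Iapp was 12.91 and 12.03 in JBlyp/lyp against 12.88 and 13.20 in F344lyp (-0.57, SE 0.27, adjusted p = 0.197). Over the list of islet hormones and secreted peptides 2 rose and 2 fell of 29 (median 0.06). Ghrl, the ghrelin gene, rose by 1.07 (SE 0.28, adjusted p = 0.0306) and Chgb, a granin of secretory granules, by 0.67 (SE 0.15, adjusted p = 0.0195). Npy, a neuropeptide that islet cells and sympathetic nerves make, was 9.28 and 8.49 in JBlyp/lyp against 9.98 and 10.21 in F344lyp, and fell by 1.20 (SE 0.28, adjusted p = 0.019), and Nucb2, the precursor of nesfatin, fell by 0.59 (SE 0.14, adjusted p = 0.0199). The hormone counts higher and lower were 1 and 5 when JBlyp/lyp replicate 1 was left out, 3 and 0 with JBlyp/lyp replicate 2 left out, 0 and 0 with F344lyp replicate 1 left out and 0 and 1 with F344lyp replicate 2 left out. Ghrl lost its call without JBlyp/lyp replicate 1 or either F344lyp array and Chgb, Npy and Nucb2 lost their calls without JBlyp/lyp replicate 2 or either F344lyp array. Each of these named calls ended with the Gapdh term.

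Of the secretory granule and prohormone processing genes 6 rose and 2 fell of 38 (median 0.09). Ptprn2, the granule protein phogrin and an autoantigen of type 1 diabetes, was 9.46 and 9.08 in JBlyp/lyp against 11.08 and 11.13 in F344lyp, and fell by 1.83 (SE 0.16, adjusted p = 0.000119). The glutamate decarboxylase genes Gad1 and Gad2, whose products make GABA and are autoantigens as well, were 11.32 and 11.99 in JBlyp/lyp against 10.65 and 10.98 in F344lyp, and 5.37 and 5.51 in JBlyp/lyp against 4.55 and 4.36 in F344lyp. They rose by 0.84 (SE 0.24, adjusted p = 0.043) and 0.99 (SE 0.19, adjusted p = 0.00847). Cplx2, a complexin that clamps vesicle fusion, rose by 1.25 (SE 0.30, adjusted p = 0.0239). Syt13 (-0.68) was also called, outside the naming rule. The granule counts higher and lower were 5 and 4 when JBlyp/lyp replicate 1 was left out, 3 and 1 with JBlyp/lyp replicate 2 left out, 1 and 2 with F344lyp replicate 1 left out and 3 and 1 with F344lyp replicate 2 left out. Gad1 lost its call without JBlyp/lyp replicate 2 or either F344lyp array and Gad2 lost its call without F344lyp replicate 2. Cplx2 lost its call without JBlyp/lyp replicate 1 or either F344lyp array. The Gapdh term ended each of these calls.

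Of the islet transcription factors 10 rose and 4 fell of 42 (median 0.19). The 2 largest falls were of Ptf1a and Nr5a2, the acinar factors given above, which developing islets also use. St18, a zinc finger factor of endocrine cells, was 7.03 and 7.19 in JBlyp/lyp against 5.43 and 5.07 in F344lyp, and rose by 1.85 (SE 0.24, adjusted p = 0.00104). Foxo1, which insulin signalling keeps out of the nucleus, was 8.29 and 7.62 in JBlyp/lyp against 6.68 and 6.29 in F344lyp, and rose by 1.47 (SE 0.24, adjusted p = 0.0044). Of factors that define beta cells, chosen after their values were seen, Pdx1 was 8.73 and 8.20 in JBlyp/lyp against 9.36 and 9.50 in F344lyp (difference -0.96, SE 0.22, adjusted p = 0.0173). Nkx6-1 was 10.65 and 10.59 in JBlyp/lyp against 9.88 and 9.95 in F344lyp (difference 0.71, SE 0.15, adjusted p = 0.0142), and Neurod1 was 11.94 and 11.90 in JBlyp/lyp against 10.99 and 11.38 in F344lyp (difference 0.73, SE 0.18, adjusted p = 0.0284). Pdx1 thus fell while Nkx6-1 and Neurod1 rose, and whether these 3 calls held with each array left out was not examined. Gata4 (-1.35) was also called, outside the naming rule. The factor counts higher and lower were 5 and 4 when F344lyp replicate 1 was left out and 4 and 3 with F344lyp replicate 2 left out. Foxo1 lost its call without F344lyp replicate 2. Ptf1a and Nr5a2 kept their calls with the Gapdh term, and the other called genes named here did not.

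Of the receptors and sensors through which beta cells read glucose and hormones 5 rose and 5 fell of 37 (median 0.09). Each count is 13.5% of the list, against 4.70% of all genes that rose and 11.3% that fell. Glp1r, the receptor for the incretin GLP-1, was 9.21 and 8.81 in JBlyp/lyp against 7.89 and 7.96 in F344lyp, and rose by 1.08 (SE 0.17, adjusted p = 0.00306). Prlr, the prolactin receptor, was 10.74 and 10.24 in JBlyp/lyp against 9.03 and 9.35 in F344lyp, and rose by 1.30 (SE 0.32, adjusted p = 0.0245). The insulin receptor gene Insr was 4.87 and 4.33 in JBlyp/lyp against 5.53 and 5.63 in F344lyp (difference -0.98, SE 0.24, adjusted p = 0.0269), and Adcy8, a calcium-stimulated adenylyl cyclase, was 3.86 and 3.76 in JBlyp/lyp against 4.79 and 4.92 in F344lyp (difference -1.05, SE 0.20, adjusted p = 0.00842). The arrays of the groups did not overlap in any of these 4 genes, as in every called gene. Sstr3 (0.56), Kcnk3 (0.55), Vipr1 (0.48), Gipr (-0.56), Gcgr (-0.69) and Trpm4 (-0.84) were also called, outside the naming rule. The receptor counts higher and lower were 2 and 1 when JBlyp/lyp replicate 2 was left out, 1 and 1 with F344lyp replicate 1 left out and 1 and 0 with F344lyp replicate 2 left out. Prlr lost its call without JBlyp/lyp replicate 1 or either F344lyp array and Insr lost its call without JBlyp/lyp replicate 2 or either F344lyp array. Adcy8 lost its call without F344lyp replicate 2. All of these named calls ended under the Gapdh term.

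Ion channels and pumps set the membrane potential and the calcium that drive insulin release, and of this list 12 rose and 3 fell of 62 (19.4% rose, against 4.70% of all genes), with a median of 0.23. Ryr2, which releases calcium from the endoplasmic reticulum, was 6.81 and 6.96 in JBlyp/lyp against 4.70 and 4.57 in F344lyp, and rose by 2.25 (SE 0.15, adjusted p = 2.19e-05). Kcnj15, an inward rectifier potassium channel, was 7.13 and 7.59 in JBlyp/lyp against 5.59 and 5.76 in F344lyp, and rose by 1.69 (SE 0.18, adjusted p = 0.000419). Scn9a, a voltage-gated sodium channel of beta cells and neurons, was 7.53 and 7.46 in JBlyp/lyp against 5.83 and 5.97 in F344lyp, and rose by 1.59 (SE 0.13, adjusted p = 8.85e-05). Replicates of these 3 genes lay within 0.5 of each other. Kcnq1, a potassium channel of epithelia as well as islets, was 5.32 and 4.96 in JBlyp/lyp against 6.95 and 7.09 in F344lyp, and fell by 1.88 (SE 0.18, adjusted p = 0.000184). Kcnn4 (-0.48) and Orai1 (-0.92) were also called, outside the naming rule. The channel counts higher and lower were 11 and 6 when JBlyp/lyp replicate 1 was left out, 7 and 1 with JBlyp/lyp replicate 2 left out, 6 and 1 with F344lyp replicate 1 left out and 7 and 1 with F344lyp replicate 2 left out. Ryr2 kept its call with the Gapdh term, and the other called genes named here did not. Of the genes that beta cells are known to keep silent, 1 rose and 11 fell of 27 (median -0.50). Ldha, a lactate dehydrogenase subunit, was 8.0 and 8.14 in JBlyp/lyp against 9.30 and 9.66 in F344lyp, and fell by 1.41 (SE 0.16, adjusted p = 0.000529). Fcgrt, the neonatal Fc receptor, was 7.75 and 8.08 in JBlyp/lyp against 9.33 and 9.56 in F344lyp (difference -1.53, SE 0.18, adjusted p = 0.00074), and the microsomal transferase Mgst1 was 7.55 and 7.36 in JBlyp/lyp against 8.62 and 8.60 in F344lyp (difference -1.15, SE 0.14, adjusted p = 0.000716). Fam13a was 5.05 and 4.83 in JBlyp/lyp against 3.56 and 3.37 in F344lyp, and rose by 1.48 (SE 0.30, adjusted p = 0.0114). The disallowed-gene counts higher and lower were 0 and 8 when F344lyp replicate 1 was left out and 0 and 4 with F344lyp replicate 2 left out. Fam13a lost its call without either F344lyp array. With the Gapdh term, none of these named calls held.

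Immediate early genes, which cells switch on within minutes of a stimulus, were more often higher than lower. Of this list 9 rose and 4 fell of 41 (22.0% rose, against 4.70% of all genes), with a median of 0.26. Fosb, a partner in the AP-1 factor, was 10.70 and 11.57 in JBlyp/lyp against 8.43 and 8.54 in F344lyp, and rose by 2.66 (SE 0.29, adjusted p = 0.000419). Egr1, a zinc finger factor of the early growth response, was 11.64 and 12.06 in JBlyp/lyp against 10.37 and 10.74 in F344lyp, and rose by 1.29 (SE 0.22, adjusted p = 0.00466). Jun was 11.38 and 11.14 in JBlyp/lyp against 9.93 and 10.16 in F344lyp (difference 1.21, SE 0.15, adjusted p = 0.000805) and Jund was 11.73 and 12.09 in JBlyp/lyp against 10.74 and 11.04 in F344lyp (difference 1.02, SE 0.21, adjusted p = 0.0108). In the 4 genes each JBlyp/lyp array lay above each F344lyp array, and no called gene had overlapping groups. Fosl2 (-1.02), Zfp36 (-0.70), Myc (-0.69) and Gadd45a (-0.99) were also called, outside the naming rule. The early gene counts higher and lower were 7 and 2 when JBlyp/lyp replicate 2 was left out, 5 and 3 with F344lyp replicate 1 left out and 5 and 1 with F344lyp replicate 2 left out. Jund lost its call without JBlyp/lyp replicate 2 or F344lyp replicate 1. No named call of this group held with the Gapdh term. The promoter of Egr1 is shown for its CArG boxes, the sites of serum response factor, which were searched on both strands (a palindromic motif, so that strands count once). A CArG box was present in 451 of 27457 promoters (1.64%), in 6 of the 30 immediate early genes with a promoter (20%) and in 2 of the 10 called, Egr1 and Zfp36. Capitals mark the boxes.
Egr1 (RefSeq GRCr8, chr18:26736828-26737127, plus strand): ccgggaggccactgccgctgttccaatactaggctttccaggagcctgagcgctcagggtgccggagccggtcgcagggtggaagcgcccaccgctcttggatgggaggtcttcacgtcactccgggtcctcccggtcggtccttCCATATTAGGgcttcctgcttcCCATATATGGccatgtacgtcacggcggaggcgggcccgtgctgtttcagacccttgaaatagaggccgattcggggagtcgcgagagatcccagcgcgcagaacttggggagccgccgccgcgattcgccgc

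Of the heat shock chaperones 6 rose and 1 fell of 27 (22.2% rose, against 4.70% of all genes), with a median of -0.02. Dnajb6, a cochaperone that keeps proteins from aggregating, was 10.28 and 10.28 in JBlyp/lyp against 7.31 and 6.88 in F344lyp, and rose by 3.18 (SE 0.22, adjusted p = 2.58e-05). Dnajb1, the heat-induced partner of Hsp70, was 11.29 and 11.93 in JBlyp/lyp against 9.51 and 9.89 in F344lyp, and rose by 1.91 (SE 0.21, adjusted p = 0.000503). Hspa1a, an inducible Hsp70, was 11.56 and 11.59 in JBlyp/lyp against 9.95 and 10.23 in F344lyp, and rose by 1.49 (SE 0.15, adjusted p = 0.000269). Hspb8, a small heat shock protein, was 4.36 and 4.24 in JBlyp/lyp against 5.46 and 5.74 in F344lyp, and fell by 1.30 (SE 0.15, adjusted p = 0.000529). The heat shock counts higher and lower were 8 and 3 when JBlyp/lyp replicate 1 was left out. Each of these named calls ended with the Gapdh term. The heat shock factor binds repeats of the letters GAA, and the core GAANNTTC was searched (it reads the same on both strands). It was present in 2290 of 27457 promoters (8.34%), in 11 of the 22 heat shock genes with a promoter (50%) and in 5 of the 7 called (71.4%). Dnajb6 and Hspb8, which moved in opposite directions, both held a match. The promoter of Dnajb1, with 2 matches in capitals, is shown as the example with the largest rise that holds more than 1.
Dnajb1 (RefSeq GRCr8, chr19:41431092-41431391, minus strand): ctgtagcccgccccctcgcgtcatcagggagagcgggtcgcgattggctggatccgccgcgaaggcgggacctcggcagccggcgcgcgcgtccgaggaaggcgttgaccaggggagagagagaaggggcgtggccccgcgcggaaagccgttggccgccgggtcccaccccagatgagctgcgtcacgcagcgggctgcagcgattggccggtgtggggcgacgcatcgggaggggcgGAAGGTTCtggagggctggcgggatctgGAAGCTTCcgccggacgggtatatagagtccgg

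Of the endoplasmic reticulum chaperones and unfolded protein response genes 1 rose and 6 fell of 48 (median -0.05). The 12.5% that fell is near the 11.3% of all genes. Hyou1, a chaperone of the reticulum, was 8.43 and 9.58 in JBlyp/lyp against 6.95 and 7.10 in F344lyp, and rose by 1.99 (SE 0.32, adjusted p = 0.00385). Sel1l, the adaptor of the ubiquitin ligase that clears misfolded proteins, was 6.81 and 6.66 in JBlyp/lyp against 8.53 and 8.32 in F344lyp, and fell by 1.69 (SE 0.17, adjusted p = 0.000264). Eif2ak3, the stress kinase PERK, was 6.55 and 6.25 in JBlyp/lyp against 7.47 and 7.70 in F344lyp (difference -1.18, SE 0.20, adjusted p = 0.00507). The largest fall of this list was that of Pdia2 (-4.63), given above among the acinar genes. The reticulum counts higher and lower were 2 and 12 when JBlyp/lyp replicate 1 was left out and 1 and 3 with F344lyp replicate 2 left out. Eif2ak3 lost its call without F344lyp replicate 2. Pdia2 kept its call with the Gapdh term, and the other called genes named here did not. Of the apoptosis genes 3 rose and 5 fell of 44 (median -0.05), and the 11.4% that fell is near the 11.3% of all genes. Xiap, an inhibitor of caspases, was 7.70 and 7.57 in JBlyp/lyp against 6.66 and 6.30 in F344lyp, and rose by 1.15 (SE 0.25, adjusted p = 0.014). Bok, a pro-apoptotic Bcl-2 relative, was 7.22 and 7.07 in JBlyp/lyp against 8.29 and 8.45 in F344lyp, and fell by 1.22 (SE 0.15, adjusted p = 0.000848). Tradd, an adaptor of the TNF receptor, fell by 1.33 (SE 0.32, adjusted p = 0.0227) and Casp12, a caspase of the reticulum, by 0.88 (SE 0.23, adjusted p = 0.0342). Bcl2l11 (0.65), Mcl1 (0.62), Casp6 (-0.87) and Fadd (-0.73) were also called, outside the naming rule. The apoptosis counts higher and lower were 2 and 2 when JBlyp/lyp replicate 2 was left out, 1 and 3 with F344lyp replicate 1 left out and 0 and 2 with F344lyp replicate 2 left out. Xiap lost its call without F344lyp replicate 2 and Tradd lost its call without JBlyp/lyp replicate 2 or either F344lyp array. Casp12 lost its call without any 1 of the 4 arrays. The Gapdh term ended each of these calls.

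Of the respiratory chain and ATP synthase genes 0 rose and 22 fell of 72 (30.6% fell, against 11.3% of all genes, median -0.55). Atp5mg, an ATP synthase subunit, was 6.70 and 5.25 in JBlyp/lyp against 7.56 and 7.57 in F344lyp, and fell by 1.60 (SE 0.37, adjusted p = 0.0204). The ATP synthase subunit gene Atp5f1d was 10.11 and 9.04 in JBlyp/lyp against 10.68 and 10.79 in F344lyp (difference -1.16, SE 0.30, adjusted p = 0.0324), and the complex I genes Ndufa13 and Ndufa2 fell by 1.11 (SE 0.26, adjusted p = 0.0205) and 1.10 (SE 0.31, adjusted p = 0.0406). In these 4 genes JBlyp/lyp replicate 2 lay below JBlyp/lyp replicate 1 by more than the F344lyp arrays differed from each other. The respiratory counts higher and lower were 0 and 41 when JBlyp/lyp replicate 1 was left out, 0 and 6 with JBlyp/lyp replicate 2 left out, 0 and 9 with F344lyp replicate 1 left out and 0 and 1 with F344lyp replicate 2 left out. Atp5mg lost its call without either F344lyp array and Atp5f1d, Ndufa13 and Ndufa2 lost their calls without JBlyp/lyp replicate 2 or either F344lyp array. Of the ribosomal protein genes 0 rose and 3 fell of 42 (7.14%, against 11.3% of all genes), with a median of -0.25. Rpl6 was 11.41 and 10.60 in JBlyp/lyp against 11.84 and 12.15 in F344lyp (difference -0.99, SE 0.26, adjusted p = 0.0337). Rpl11 fell by 0.79 (SE 0.22, adjusted p = 0.0421) and Rpl14 by 0.77 (SE 0.19, adjusted p = 0.0264). The ribosomal counts higher and lower were 1 and 14 when JBlyp/lyp replicate 1 was left out, 0 and 0 with JBlyp/lyp replicate 2 left out, 0 and 0 with F344lyp replicate 1 left out and 0 and 0 with F344lyp replicate 2 left out. Rpl6, Rpl11 and Rpl14 lost their calls without JBlyp/lyp replicate 2 or either F344lyp array. All of these named calls ended under the Gapdh term.

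Of the genes of the tricarboxylic acid cycle and pyruvate metabolism 1 rose and 4 fell of 32 (median -0.27), and 2 fell after quantile normalization. The 12.5% that fell without it is near the 11.3% of all genes. Suclg1, a succinyl-CoA ligase subunit, was 9.81 and 9.33 in JBlyp/lyp against 10.36 and 10.55 in F344lyp (difference -0.88, SE 0.18, adjusted p = 0.0102), Pdhx, of the pyruvate dehydrogenase complex, fell by 0.81 (SE 0.23, adjusted p = 0.0456) and Pck2, the mitochondrial carboxykinase, by 0.70 (SE 0.20, adjusted p = 0.0477). Pdk4, which switches pyruvate dehydrogenase off, rose by 0.73 (SE 0.19, adjusted p = 0.0336). Pdk2 (-0.56) was also called, outside the naming rule. The cycle counts higher and lower were 1 and 7 when JBlyp/lyp replicate 1 was left out, 0 and 2 with JBlyp/lyp replicate 2 left out, 0 and 1 with F344lyp replicate 1 left out and 0 and 0 with F344lyp replicate 2 left out. Suclg1 lost its call without F344lyp replicate 2 and Pdhx lost its call without any 1 of the 4 arrays. Pck2 lost its call without JBlyp/lyp replicate 1 or either F344lyp array and Pdk4 lost its call without JBlyp/lyp replicate 2 or either F344lyp array. Of the glycolysis and hypoxia genes 2 rose and 7 fell of 41 (4.88% and 17.1%, median -0.21), with Ldha as above. The shares of all genes were 4.70% and 11.3%. The phosphofructokinase genes Pfkp and Pfkl fell by 1.20 (SE 0.18, adjusted p = 0.00232) and 1.29 (SE 0.27, adjusted p = 0.0125), and Tpi1, a triose isomerase, by 0.92 (SE 0.24, adjusted p = 0.0334). Vegfa (0.86) and Bnip3l (0.54) were also called, outside the naming rule. The glycolysis counts higher and lower were 0 and 6 when JBlyp/lyp replicate 2 was left out, 0 and 4 with F344lyp replicate 1 left out and 0 and 3 with F344lyp replicate 2 left out. Pfkl lost its call without F344lyp replicate 1 and Tpi1 lost its call without JBlyp/lyp replicate 1 or either F344lyp array. With the Gapdh term, none of these named calls held.

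Of the fatty acid genes 1 rose and 7 fell of 47 (2.13% and 14.9%, median -0.28). The shares of all genes were 4.70% and 11.3%, so the falls were near that share. Fabp5, a fatty acid binding protein, was 8.53 and 7.87 in JBlyp/lyp against 9.67 and 9.90 in F344lyp, and fell by 1.58 (SE 0.22, adjusted p = 0.00168). Cd36, a fatty acid transporter of macrophages and endothelium, was 5.09 and 5.27 in JBlyp/lyp against 6.30 and 7.09 in F344lyp (difference -1.52, SE 0.27, adjusted p = 0.00551). Echs1, of beta oxidation, fell by 1.10 (SE 0.22, adjusted p = 0.00972) and Plin3, a coat protein of lipid droplets, by 1.09 (SE 0.16, adjusted p = 0.00261). Cpt1b (0.54) was also called, outside the naming rule. The fatty acid counts higher and lower were 0 and 10 when JBlyp/lyp replicate 1 was left out, 0 and 4 with JBlyp/lyp replicate 2 left out, 0 and 5 with F344lyp replicate 1 left out and 0 and 2 with F344lyp replicate 2 left out. Cd36 and Echs1 lost their calls without F344lyp replicate 2. Of the sterol genes 1 rose and 5 fell of 28 (3.57% and 17.9%, against 4.70% and 11.3% of all genes, median -0.26). For Cyp51, a demethylase of cholesterol synthesis and the 1 gene counted as higher, the probe sets went both ways: the brightest gave 0.66 (SE 0.18, adjusted p = 0.0364) and another gave -0.52 (adjusted p = 0.0306), so its direction is left unstated. Mvd and Ebp, of the same pathway, fell by 0.71 (SE 0.17, adjusted p = 0.0229) and 0.65 (SE 0.17, adjusted p = 0.0288). Nr1h3, the liver X receptor alpha, fell by 0.80 (SE 0.16, adjusted p = 0.0103). Fdft1 (-0.56) and Mvk (-0.64) were also called, outside the naming rule. The sterol counts higher and lower were 0 and 0 when JBlyp/lyp replicate 2 was left out, 0 and 3 with F344lyp replicate 1 left out and 0 and 0 with F344lyp replicate 2 left out. Cyp51 lost its call without JBlyp/lyp replicate 2 or either F344lyp array and Mvd, Ebp and Nr1h3 lost their calls without JBlyp/lyp replicate 2 or F344lyp replicate 2. No named call of this group held with the Gapdh term.

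Of the matrix and stellate cell genes 2 rose and 21 fell of 87 (median -0.23). Postn, a matrix protein of activated fibroblasts, was 5.76 and 5.80 in JBlyp/lyp against 7.5 and 7.61 in F344lyp, and fell by 1.78 (SE 0.15, adjusted p = 9.04e-05). Des, the intermediate filament desmin, was 6.06 and 5.09 in JBlyp/lyp against 7.29 and 7.17 in F344lyp (difference -1.65, SE 0.27, adjusted p = 0.00435). Loxl2, which crosslinks collagen, was 7.95 and 6.89 in JBlyp/lyp against 5.76 and 5.73 in F344lyp, and rose by 1.67 (SE 0.38, adjusted p = 0.0194), and Thbs4, a thrombospondin, rose by 1.5 (SE 0.23, adjusted p = 0.00309). The matrix counts higher and lower were 3 and 12 when JBlyp/lyp replicate 2 was left out and 1 and 7 with F344lyp replicate 2 left out. Loxl2 lost its call without JBlyp/lyp replicate 1 or either F344lyp array. Of the endothelium genes 4 rose and 9 fell of 54 (7.41% and 16.7%, against 4.70% and 11.3% of all genes, median 0.02). The transcription factor genes Sox17 and Erg rose by 1.44 (SE 0.24, adjusted p = 0.00441) and 1.21 (SE 0.21, adjusted p = 0.0053), while Stab2, a scavenger receptor of sinusoidal and lymphatic endothelium, was 3.99 and 3.67 in JBlyp/lyp against 5.16 and 5.19 in F344lyp, and fell by 1.34 (SE 0.20, adjusted p = 0.00282). Ly6c, a surface antigen that monocytes share, fell by 1.23 (SE 0.16, adjusted p = 0.00119). Plvap (0.59) and Nrp1 (0.74) were also called, outside the naming rule. The endothelium counts higher and lower were 7 and 13 when JBlyp/lyp replicate 1 was left out, 2 and 6 with JBlyp/lyp replicate 2 left out, 2 and 5 with F344lyp replicate 1 left out and 2 and 3 with F344lyp replicate 2 left out. Each of these named calls ended with the Gapdh term.

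Of the nerve and Schwann cell genes 3 rose and 2 fell of 45 (median 0.01). Scn7a, a sodium channel of glia, was 10.87 and 11.28 in JBlyp/lyp against 9.85 and 10.01 in F344lyp, and rose by 1.14 (SE 0.22, adjusted p = 0.00902), and Mbp, of myelin, rose by 0.74 (SE 0.16, adjusted p = 0.0133). Mpzl2, an adhesion protein that epithelia also make, was 5.04 and 6.03 in JBlyp/lyp against 7.30 and 7.37 in F344lyp, and fell by 1.80 (SE 0.27, adjusted p = 0.00282). Nefm (0.50) was also called, outside the naming rule. The nerve counts higher and lower were 4 and 4 when JBlyp/lyp replicate 1 was left out, 2 and 1 with JBlyp/lyp replicate 2 left out, 0 and 1 with F344lyp replicate 1 left out and 1 and 1 with F344lyp replicate 2 left out. Scn7a lost its call without either F344lyp array and Mbp lost its call without F344lyp replicate 1. Of the erythroid and platelet genes 2 rose and 1 fell of 24 (median 0.03). The alpha globin gene Hba-a3 rose by 0.64 (SE 0.16, adjusted p = 0.0309) and Alas2, of heme synthesis in red cells, by 0.60 (SE 0.15, adjusted p = 0.0259), and the platelet integrin gene Itgb3 fell by 0.84 (SE 0.16, adjusted p = 0.00901). The erythroid counts higher and lower were 1 and 2 when JBlyp/lyp replicate 1 was left out, 1 and 1 with JBlyp/lyp replicate 2 left out, 0 and 0 with F344lyp replicate 1 left out and 0 and 1 with F344lyp replicate 2 left out. Hba-a3 lost its call without JBlyp/lyp replicate 1 or either F344lyp array and Alas2 lost its call without any 1 of the 4 arrays. Itgb3 lost its call without F344lyp replicate 1. The Gapdh term ended each of these calls.

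Beside Fosb, Dnajb6 and RT1-T24-4, given above, the largest rises were of genes on none of the lists. Fam111a, a serine protease that takes part in DNA replication and in the restriction of viruses, was 11.97 and 11.68 in JBlyp/lyp against 5.59 and 5.71 in F344lyp, and rose by 6.17 (SE 0.15, adjusted p = 6.97e-08), the only rise of 16-fold or more. Ythdf2, which recognises methylated adenosine in mRNA, was 9.45 and 9.0 in JBlyp/lyp against 5.73 and 5.56 in F344lyp, and rose by 3.58 (SE 0.18, adjusted p = 3.23e-06). Setd5, a chromatin regulator, was 9.11 and 9.04 in JBlyp/lyp against 5.83 and 5.85 in F344lyp, and rose by 3.23 (SE 0.27, adjusted p = 8.08e-05). In F344lyp these genes lay below a level of 6. Cyp4v3, a cytochrome P450 that hydroxylates fatty acids, was 8.52 and 8.97 in JBlyp/lyp against 5.84 and 5.31 in F344lyp (difference 3.17, SE 0.21, adjusted p = 2.19e-05). Snx27, of endosomal sorting, was 8.75 and 9.05 in JBlyp/lyp against 6.27 and 6.13 in F344lyp (difference 2.70, SE 0.19, adjusted p = 3.18e-05), and Arhgap5 was 7.53 and 7.28 in JBlyp/lyp against 5.02 and 4.64 in F344lyp (difference 2.58, SE 0.27, adjusted p = 0.000372). Pdgfrl, a protein like the PDGF receptor, rose by 2.38, the transcription factor gene Mga by 2.37, Galnt5, which starts O-linked sugar chains, by 2.34, the ubiquitin ligase gene Herc1 by 2.33, the nuclear exporter gene Xpo4 by 2.30 and Ubn2, of a histone chaperone complex, by 2.30. Fam111a and Ythdf2 kept their calls with the Gapdh term, and the other called genes named here did not.

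Other probe sets of the same genes bore on these values. Of the 15 largest rises, 8 genes had 13 other probe sets, with differences from -0.45 to 1.84. Of those 13, 3 were called higher and 1 showed at least 50% of the rise. The 3 belong to Ythdf2, Mga and Herc1. No other probe set of Setd5, Cyp4v3, Snx27, Xpo4 or Ubn2 was called, and Fam111a had no other probe set. Of the 15 largest falls, 2 genes had 3 other probe sets, from -4.64 to -1.32, all 3 called lower and 1 with at least 50% of the fall. Over all genes that rose by 2-fold or more, 41 of 218 other probe sets (18.8%) were called in the same direction, against 48 of 157 (30.6%) for genes that fell by 2-fold or more. With the mean over all probe sets of a gene in place of the brightest, calls ended for Cr2, Erg, Prlr, Insr, Foxo1, Apoe, Loxl2, Wt1, Mbp, Me2, Rpl14, Gad1, Cyp51 and Pck2.

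JB and F344, the groups labelled without a lyp mutation, were compared in the same way, on arrays that share none with the comparison above. Both comparisons came from 1 fit over the 10 arrays and share its estimate of the spread, so their calls are not independent. How JB relates to the DR line, from whose DRlyp/+ matings the JBlyp/lyp rats came, is not given in the sources used here, so JB and JBlyp/lyp may differ by more than lyp. In JB minus F344, 1849 of 14217 genes (13.0%) were called, 681 (4.79%) higher and 1168 (8.22%) lower. Both comparisons called 1121 genes in the same direction, which is 49.3% of those called with lyp and 60.6% of those called without it, and 4 genes in opposite directions. The Gapdh 3' minus 5' signal, 3.71 and 3.31 in JB against 2.43 and 2.35 in F344, was higher in JB as it was higher in JBlyp/lyp. Only 1 gene, Fam111a, was called with the Gapdh term in JB minus F344, and it was also the 1 gene called in both comparisons. Fam111a was 11.67 and 11.73 in JB against 5.04 and 4.80 in F344, a difference of 6.78. Reg3a was 4.47 and 4.79 in JB against 10.28 and 9.84 in F344 (-5.43) and Reg3b was 7.20 and 7.37 in JB against 11.86 and 11.72 in F344 (-4.50), so that these 3 genes differed by about as much with lyp as without it. Prss3bl1 was 6.36 and 6.64 in JB against 11.69 and 11.60 in F344 (-5.14). Prdx4 was 8.96 and 8.38 in JB against 9.80 and 9.64 in F344, a smaller difference of -1.05 (adjusted p = 0.0356). The test of the difference between the 2 differences gave -1.66 (SE 0.39, adjusted p = 0.198) for Prdx4, which does not pass.

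The difference with lyp minus that without lyp was called for 68 genes (0.478%), of which 63 were also called in the comparison with lyp. Of the 68 genes, 6 kept this call with the Gapdh term and no other gene gained it, and over probe sets the calls went from 88 to 7. The 6 are 1810009J06Rikl, Reg3g, Mcpt1l1, Lypd8, Si and Gjb2, of which Lypd8, Si and Gjb2 lie outside the naming rule. At probe set level 9 were higher and 79 lower, and 2369 had an unadjusted p under 0.05. Reg3g was 4.91 and 4.86 in JB against 5.47 and 5.17 in F344, a difference of -0.44, against -4.09 with lyp, and the difference between them was -3.65 (SE 0.22, adjusted p = 0.000317). The gene 1810009J06Rikl was 5.97 and 5.89 in JB against 7.68 and 7.63 in F344, and the difference between differences was -3.59 (SE 0.19, adjusted p = 0.000168). Ptf1a was 5.19 and 4.68 in JB against 6.16 and 6.26 in F344, with -2.79 (SE 0.32, adjusted p = 0.0083). In these 3 genes both F344lyp arrays lay above both F344 arrays. The acinar list had a mean level of 9.11 and 8.82 in JB and 10.48 and 10.30 in F344, next to 9.02 and 8.55 in JBlyp/lyp and 11.30 and 11.49 in F344lyp. Cma1, of mast cells, was 4.67 and 4.79 in JB against 5.08 and 4.75 in F344, a difference of -0.19 against -2.58 with lyp (-2.40 (SE 0.26, adjusted p = 0.00584)). Upk1b, of mesothelium, was 6.80 and 6.40 in JB against 6.47 and 6.42 in F344 (0.15 against -1.96, -2.11 (SE 0.23, adjusted p = 0.00584)). No antioxidant enzyme or glutathione transferase was among the 68 genes. The number of probe sets called for this difference fell to 37 and 19 when F344lyp replicate 1 or replicate 2 was left out.

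**Figure D4:**
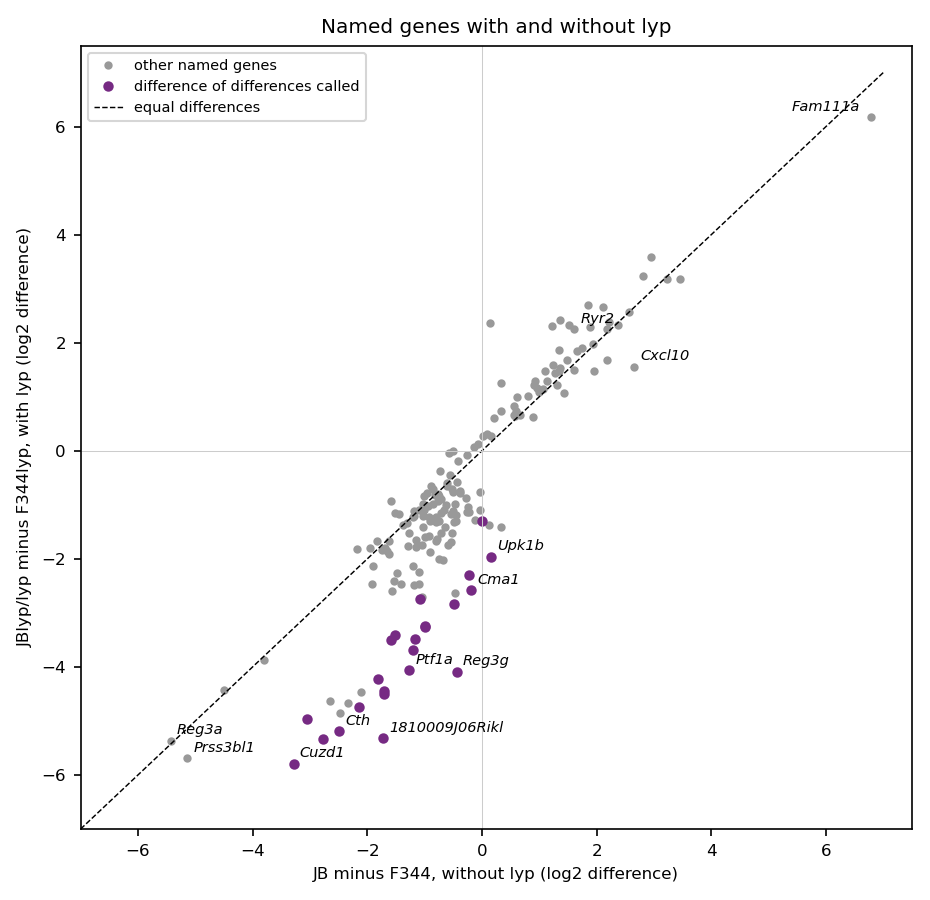
Each point is a named gene, placed by its difference between JB and F344 (without lyp, horizontal) and between JBlyp/lyp and F344lyp (with lyp, vertical), both log2 with 2 arrays a group, and the dashed line marks equal differences. Purple points, where the difference between the 2 values was called, lie below the line, among them Reg3g (-0.44 and -4.09), while Fam111a and Reg3a lie near it.

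The lyp mutation lies in Gimap5, and JBlyp/lyp and F344lyp are both named for it. Gimap5 was 5.95 and 5.65 in JBlyp/lyp against 5.96 and 6.02 in F344lyp, a difference of -0.19 (SE 0.29, adjusted p = 0.715). Both JBlyp/lyp arrays lay below both F344lyp arrays, a lack of overlap found in either direction for 7795 of all 14217 genes. In the groups without lyp, Gimap5 was 7.05 and 5.95 in JB against 7.03 and 6.82 in F344 and 8.22 and 8.41 in DR+/+. The JB arrays lay more than 1 unit apart, and 1 of them lay within the range of the lyp groups. The mutation is a frameshift, so a level of the transcript does not check the genotype. Of the other Gimap genes, which stand beside Gimap5 and are known from lymphocytes, Gimap4 was 5.46 and 5.0 in JBlyp/lyp against 5.81 and 5.56 in F344lyp (-0.46, SE 0.19, adjusted p = 0.139) and Gimap7 was 3.60 and 3.67 in JBlyp/lyp against 4.01 and 3.99 in F344lyp (-0.36, SE 0.21, adjusted p = 0.299). Gimap1 was 4.13 and 4.08 in JBlyp/lyp against 4.30 and 4.01 in F344lyp (-0.05, SE 0.17, adjusted p = 0.891) and Gimap6 was 7.31 and 7.59 in JBlyp/lyp against 7.45 and 7.31 in F344lyp (0.07, SE 0.18, adjusted p = 0.848). None of the 5 measured Gimap genes was called, and without JBlyp/lyp replicate 1 the count was 1.

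The 20 measured genes on each side of Gimap5 were described as well, in RefSeq order, since they lie nearest to the mutated gene. Of these 40 genes 6 were called (15%, against 16.0% of all genes), and in JB minus F344 4 were called (10%, against 13.0%). The median size of the difference was 0.254, against 0.267 over all genes. The 6 called were taken by position and not by the naming rule. By its brightest probe set Repin1, a zinc finger factor, rose by 0.62 (SE 0.17, adjusted p = 0.0369). Its 2 other probe sets gave -0.25 and -0.22, neither of them called. Tmem176b and Tmem176a, membrane proteins of dendritic cells and macrophages next to Gimap5, fell by 1.17 (SE 0.21, adjusted p = 0.00693) and 0.91 (SE 0.16, adjusted p = 0.00667). Gpnmb, a glycoprotein of macrophages, fell by 1.0 (SE 0.21, adjusted p = 0.0129), the RNA-binding protein gene Igf2bp3 by 1.73 (SE 0.17, adjusted p = 0.000269) and Npy by 1.20 (SE 0.28, adjusted p = 0.019). For Igf2bp3 the 2 other probe sets gave only -0.18 and -0.11, neither of them called. The share of neighbours called was thus near the share of all genes. Of the 6 calls, 0 held with the Gapdh term. The sequence that each strain carries beside Gimap5 was not analysed here.

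**Figure D5:**
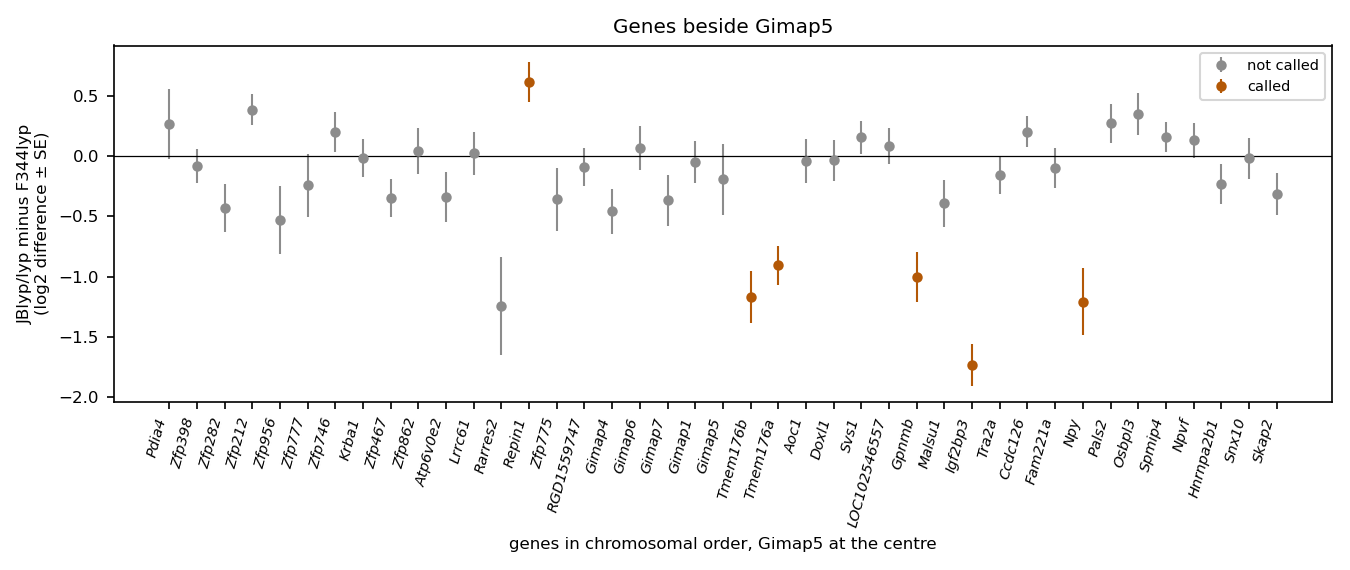
Differences between JBlyp/lyp and F344lyp (log2, mean with SE as bars, 2 arrays a group) of Gimap5 and 20 measured genes on each side, in chromosomal order and evenly spaced. The 6 called genes are coloured, from -1.73 for Igf2bp3 to 0.62 for Repin1, and Gimap5 stands at -0.19.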

How the data were processed

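RNA of pancreatic islets from 10 samples was measured on Affymetrix expression arrays. The deposited values are log2 intensities, 1 per probe set and array, which the authors obtained with RMA and GCOS according to the submitters' processing notes; their versions are not given in the sources used. The unit was checked on the values, and the number of arrays limits the precision.

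Of 31099 probe sets, 57 controls were set aside. The array's annotation supplied the symbols: 20826 of 31042 probe sets have 1 symbol, 436 several and 9780 none, which gives 14217 genes. A limma 3.58.1 model (R 4.3.3) with 1 mean per group was fitted over the 10 arrays (5 residual degrees of freedom, to which the prior adds 4.72), with moderated two-sided tests and Benjamini-Hochberg adjustment over all probe sets. The fit was tested on simulated data. Named genes are the 15 largest rises and falls among called genes whose arrays do not overlap, up to 4 called members of each list, and a fixed set of hormone, Gimap and antioxidant genes; uncharacterised loci were passed over, and members outside this rule, named where a direction held 5 or fewer calls, were chosen after their values were seen. The comparison, the 40 lists and a list of sex-linked genes were chosen with earlier results of these data known. The alternatives are the 4 arrays alone, an intensity-dependent prior, quantile normalization, a filter on dim probe sets (mean level under 5), the replicate number as a block, the Gapdh term, the mean over probe sets, and leaving out each array. Figures were drawn with matplotlib 3.10.9.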

Additional observations from a re-analysis of the deposited data

Results flagged for a closer look

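For 23 named genes the difference between the backgrounds with lyp (JBlyp/lyp minus F344lyp) differed from that without it (JB minus F344) by limma's test of the difference itself, with Benjamini-Hochberg adjustment and 2 arrays in each of the 4 groups. In all 23 the difference with lyp was the more negative. Of the 23, 3 kept this call with the Gapdh term (1810009J06Rikl, Reg3g and Mcpt1l1). JB and JBlyp/lyp may differ by more than lyp, since how JB relates to the DR line is not given in the sources used here. Values are on the log2 scale.

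Acinar genes and genes beside them among the largest falls came first. Cuzd1, of the zymogen granule, gave -5.79 with lyp and -3.29 without it, a difference of -2.50 (adjusted p = 0.00253). Spink1l, a trypsin inhibitor, gave -4.96 with lyp and -3.05 without it, a difference of -1.91 (adjusted p = 0.0196). Tmed6, a cargo receptor, gave -4.73 with lyp and -2.14 without it, a difference of -2.59 (adjusted p = 0.0106). Amy1, an amylase, gave -4.51 with lyp and -1.71 without it, a difference of -2.80 (adjusted p = 0.0389). Ptf1a, the acinar transcription factor, gave -4.06 with lyp and -1.27 without it, a difference of -2.79 (adjusted p = 0.0083). Gatm, of creatine synthesis, gave -4.22 with lyp and -1.81 without it, a difference of -2.41 (adjusted p = 0.0083). 1810009J06Rikl, named for a clone, gave -5.32 with lyp and -1.73 without it, a difference of -3.59 (adjusted p = 0.000168). Ang, a ribonuclease, gave -5.33 with lyp and -2.77 without it, a difference of -2.57 (adjusted p = 0.0106). Ptger3, a prostaglandin E2 receptor, gave -4.44 with lyp and -1.71 without it, a difference of -2.73 (adjusted p = 0.00213).

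A regenerating gene and enzymes of amino acid metabolism followed. Reg3g, a secreted lectin, gave -4.09 with lyp and -0.44 without it, a difference of -3.65 (adjusted p = 0.000317). Cth, the cysteine-making enzyme, gave -5.19 with lyp and -2.49 without it, a difference of -2.69 (adjusted p = 0.00232). Gnmt, a methyltransferase, gave -3.27 with lyp and -0.99 without it, a difference of -2.28 (adjusted p = 0.0171). Gls2, a glutaminase, gave -3.23 with lyp and -0.99 without it, a difference of -2.24 (adjusted p = 0.0288).

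Genes of ducts, gut epithelium and mesothelium were next. Lgals4, a galectin of digestive epithelium, gave -3.49 with lyp and -1.16 without it, a difference of -2.32 (adjusted p = 0.00185). Muc1, the duct mucin, gave -3.50 with lyp and -1.58 without it, a difference of -1.92 (adjusted p = 0.0114). Clca1, of goblet cells, gave -2.84 with lyp and -0.48 without it, a difference of -2.35 (adjusted p = 0.00584). Anpep, a brush border peptidase, gave -2.74 with lyp and -1.08 without it, a difference of -1.66 (adjusted p = 0.0347). Upk1b, of mesothelium, gave -1.96 with lyp and 0.15 without it, a difference of -2.11 (adjusted p = 0.00584).

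Mast cell proteases, a complement gene and a chaperone completed the set. Mcpt1l1, a mast cell protease, gave -3.69 with lyp and -1.20 without it, a difference of -2.49 (adjusted p = 0.0138). Cma1, the mast cell chymase, gave -2.58 with lyp and -0.19 without it, a difference of -2.40 (adjusted p = 0.00584). Cpa3, a mast cell carboxypeptidase, gave -2.30 with lyp and -0.22 without it, a difference of -2.08 (adjusted p = 0.0119). Cfi, a complement regulator, gave -3.41 with lyp and -1.51 without it, a difference of -1.90 (adjusted p = 0.0377). Hspb8, a small heat shock protein, gave -1.30 with lyp and -0.01 without it, a difference of -1.30 (adjusted p = 0.0408).

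Without lyp, the differences of Reg3g, Clca1, Cma1, Cpa3, Upk1b and Hspb8 did not pass the test, and the others of these genes fell. A mean level of the acinar list of 11.30 and 11.49 in F344lyp against 10.48 and 10.30 in F344 goes with these values, and its part was not tested.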

How the results depend on the processing

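Fitted on the 4 arrays alone, 1936 probe sets and 959 genes were called (258 higher, 701 lower), with 8 antioxidant enzymes lower, and 39 of the 169 named calls ended, among them those of Gpx1, Sod2, Tkt, Cd74, Apoe, Npy and the named respiratory chain and ribosomal genes. With the Gapdh term 103 probe sets and 70 genes were called (5 higher, 65 lower), 0 antioxidant enzymes higher or lower and 0 glutathione transferases lower, and 7 probe sets for the difference with lyp minus that without; 31 named calls held (3 higher, 28 lower), and the uncalled Gimap1 turned to 0.070. Leaving out each array gave 1404 to 5482 probe sets, 758 to 3067 genes (249 to 970 higher, 509 to 2097 lower), 19 to 130 probe sets for the difference with lyp minus that without, 7 to 20 antioxidant enzymes and 7 to 15 glutathione transferases lower, and 111 named calls held in each case. The filter on dim probe sets left 58 probe sets called for the difference with lyp minus that without. Quantile normalization ended the calls of Cd24, Gad1 and Pdhx and turned Sst, not called, to 0.32, and the intensity-dependent prior ended the call of Pck2. With the mean over all probe sets, 14 named calls ended, and RT1-Bb and RT1-Ba turned to -1.79 and -0.42. Uncalled genes near 0 also changed sign with an array left out: Gimap6 from -0.074 to 0.21, Sst from -0.18 to 0.17, Gimap1 from -0.19 to 0.096 and Sod1 from -0.24 to 0.067.

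The labels do not say whether same-numbered arrays belong together, and the main fit assumed no pairing. Deviations from the group means correlated at 0.237 between same-numbered JBlyp/lyp and F344lyp arrays and at -0.101 to 0.652 over all pairs of groups. With the replicate block 5333 probe sets (4383 without it) and 2780 genes were called, and no named call changed.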

Other observations

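The DR+/+ arrays enter no comparison of the report and, per the growth protocol, those rats came from DRlyp/+ matings as JBlyp/lyp rats did. Fam111a was 10.42 and 10.37 in DR+/+, next to 11.97 and 11.68 in JBlyp/lyp against 5.59 and 5.71 in F344lyp. Reg3a was 4.50 and 4.42 in DR+/+, next to 7.45 and 6.92 in JBlyp/lyp against 12.39 and 12.70 in F344lyp. Cuzd1 was 5.51 and 5.53 in DR+/+, next to 5.95 and 6.15 in JBlyp/lyp against 11.67 and 12.01 in F344lyp. Prdx4 was 8.57 and 8.54 in DR+/+, next to 9.02 and 8.20 in JBlyp/lyp against 11.13 and 11.51 in F344lyp. These 4 genes were chosen after their values were seen, and no test was run.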
